A study of Mus musculus with 12 samples.

Results

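The survival and death genes of the BCL2 family were followed in macrophages and livers of mice with and without the receptor for thyroid-stimulating hormone (TSH) in myeloid cells. The 10 genes, chosen by symbol, were *Bcl2*, *Bcl2l1*, *Mcl1*, *Bcl2a1a*, *Bcl2a1b*, *Bcl2a1d*, *Bax*, *Bcl2l11*, *Bbc3* and *Cflar*, among 55335 genes counted by RNA sequencing, and all 10 passed the filter on low counts in every comparison. Bone-marrow-derived macrophages (BMDMs), grown with M-CSF (10 ng/mL) for 7 days, came from male *Tshr* f/f or *Tshr* f/f,Lyz2-Cre mice (Tshr MKO), 6 weeks old by the labels. Every culture was given TSH (1 ng/mL, 24 h), so no library shows cells without the hormone. Livers came from male mice of the same 2 genotypes that had started a high-fat diet at 6 weeks of age, stayed on it for 9 weeks, fasted for 8 h and received insulin (1.5 U/kg) for 5 min. There were 3 libraries in each of the 4 groups. All mice carry the floxed *Tshr* allele on a C57BL/6N background and only MKO mice carry Cre, which the *Lyz2* promoter drives in macrophages and neutrophils, so an effect of Cre and of the lost receptor cannot be told apart. In a liver most cells are hepatocytes, which the Cre line does not target, and whole-organ RNA does not show which cell a transcript came from.

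BCL2 proteins set whether mitochondria are opened for apoptosis. BCL2, BCL-XL (from *Bcl2l1*), MCL1 and A1 (from the *Bcl2a1* genes) hold cells alive, the BH3-only proteins BIM (*Bcl2l11*) and PUMA (*Bbc3*) oppose them, and BAX forms the pores. *Cflar* encodes cFLIP, which is no BCL2 protein: it stops caspase-8 at the death receptors. In macrophages *Bcl2a1* genes and *Cflar* are well-known targets of NF-κB, while *Bcl2l11* is a known target of FOXO factors, which growth factor and insulin signalling restrain.

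The 3 *Bcl2a1* genes are shown first because a read may fit more than 1 of them. They lie on chromosome 9 of GRCm38: *Bcl2a1d* at 88723285–88731914 on the minus strand, *Bcl2a1a* at 88956900–88962419 and *Bcl2a1b* at 89199209–89207827, both on the plus strand. Each coding sequence in GENCODE M21 has 519 bases. *Bcl2a1a* and *Bcl2a1b* differ at 11 of these, *Bcl2a1a* and *Bcl2a1d* at 7, and *Bcl2a1b* and *Bcl2a1d* at 6. The first 150 coding bases hold most of the differences, and capitals mark the positions where the 3 are not all alike.
Bcl2a1a: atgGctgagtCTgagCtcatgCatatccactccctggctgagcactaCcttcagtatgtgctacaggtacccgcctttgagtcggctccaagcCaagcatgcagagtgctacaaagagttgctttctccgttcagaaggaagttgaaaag
Bcl2a1b: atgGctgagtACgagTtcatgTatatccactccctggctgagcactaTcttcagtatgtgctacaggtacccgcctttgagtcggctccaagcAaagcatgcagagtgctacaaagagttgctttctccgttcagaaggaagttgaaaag
Bcl2a1d: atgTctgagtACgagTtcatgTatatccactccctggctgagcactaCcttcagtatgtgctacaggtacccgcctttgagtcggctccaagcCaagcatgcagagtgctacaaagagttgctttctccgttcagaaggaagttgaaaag
Of all windows of 50 bases in a transcript, 67.7% of those in *Bcl2a1a*, 57.6% in *Bcl2a1b* and 79.5% in *Bcl2a1d* were also in another paralog. Over 150 bases the shares were 28.2%, 14.2% and 30.3%. How shared reads were assigned is not given in the sources used here, so the values of single paralogs are uncertain and their sum is given beside them.

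The promoter of *Bcl2l11* is shown because this gene had opposite genotype differences in the 2 tissues by the library labels. The window, from RefSeq on GRCm38.p6, is chr2:128125788-128126087 on the plus strand, 250 bases before to 50 after a start site, and capitals mark a FOXO motif (GTAAACA) that begins 227 bases before the start.
Bcl2l11 promoter: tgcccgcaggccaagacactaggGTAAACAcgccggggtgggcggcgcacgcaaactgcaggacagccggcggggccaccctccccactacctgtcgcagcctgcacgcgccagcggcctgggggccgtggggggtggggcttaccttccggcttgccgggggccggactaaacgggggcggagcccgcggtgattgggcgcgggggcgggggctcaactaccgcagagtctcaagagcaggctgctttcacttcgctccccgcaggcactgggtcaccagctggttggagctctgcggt
The letters were searched on both strands and were in 3.65% of 32851 promoter windows. Of 15 windows of the 10 genes they were in 2, this one and a window of *Bbc3*. The κB consensus was in 4.51% of all windows and in 2 of the 15, those of *Bcl2l1* and *Bbc3*. It was not in these windows of *Cflar* or the *Bcl2a1* genes, which says only that the letters are not in those bases. A match is a description of letters and not of a bound site. On GRCm38 the gene *Bcl2l11* spans 128126038–128162547 of chromosome 2 and *Cflar* spans 58711508–58758884 of chromosome 1, both on the plus strand. *Bcl2l1* lies on chromosome 2, *Bcl2* on 1, *Mcl1* on 3, and *Bax* and *Bbc3* on 7. Annotated exons of other genes overlap those of *Bcl2*, *Bax* and *Bcl2a1b*, with 0, 6 and 495 counts in all 12 libraries together.

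Library totals were 28962878–40954211 counts. *Tshr* itself had 0, 0 and 2 counts in f/f BMDMs, 0, 0 and 5 in MKO BMDMs and 0 in all 6 livers, so the deleted gene could not check the labels at this depth (a count of 0 allows up to 3 counts, which are 0.0498–0.141 CPM, counts scaled to library size). The study's supplement lists liver counts of 12 receptor genes in 6 columns. Each column matched 1 liver library exactly, and all 6 stood under the other genotype's heading than the library's label. The label is used here, livers are called "labelled f/f" or "labelled MKO", and every genotype direction in liver would turn if the headings were right. One BMDM library stood apart: f/f replicate 3 had a scaling factor of 0.738 against 0.993–1.11 in the other 5 and 6508 CPM of the NF-κB target *Ptgs2*, against 330.1 and 117 in the other f/f libraries. Hepatocyte markers (5 genes) were at 0 in f/f BMDMs. Summed stellate cell or fibroblast markers (4 genes) were at 460, 1277 and 452 CPM in f/f BMDMs, highest in replicate 2. In MKO BMDMs they were at 419, 537 and 282 CPM. The summed macrophage markers were 10900–11810 CPM in f/f and 14690–21870 in MKO BMDMs, of which *Lyz2* made 6459–7137 and 10660–16640. Neutrophil markers were at 144–536 and 150–256, of which *Csf3r* alone made 121–500 and 146–247. The part of these differences in the results below was not tested. By the methods, the libraries of a group came from different mice, male littermates in both tissues.

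*Mcl1* was the survival gene with the highest level in 5 of 6 BMDM libraries and in all 6 livers, with *Bcl2a1b* next in those 5 and *Bcl2l1* next in the livers. Levels are CPM, the counts of a gene over a library's total and its TMM factor (a scaling that sets most genes equal between libraries), with factors from all 12 libraries, and genes are compared with each other per kilobase of annotated exon. In f/f BMDMs *Bcl2a1b* was at 228 ± 170 CPM per kilobase (SD, n = 3), *Mcl1* at 179 ± 47.4, *Bcl2a1d* at 121 ± 122 and *Bcl2a1a* at 79.0 ± 59.7. *Bcl2a1b* led this mean through f/f replicate 3 (423 against 230.3 for *Mcl1*), whereas it was below *Mcl1* in replicate 1 (154 against 169.5) and replicate 2 (107.3 against 137). *Cflar* followed at 43.5 ± 36.3 and *Bax* at 41.4 ± 12.1. *Bcl2l1* was at 11.3 ± 1.83, *Bcl2l11* at 5.501 ± 0.615, *Bbc3* at 1.80 ± 0.618 and *Bcl2* at 1.03 ± 0.337. The 5 highest overlapped in their ranges with the next gene in the order, as did *Bbc3* and *Bcl2*, whereas *Bcl2l1* and *Bcl2l11* stood clear of both neighbours. In livers labelled f/f *Mcl1* led at 39.7 ± 3.24, followed by *Bcl2l1* at 14.3 ± 4.57, *Cflar* at 13.8 ± 1.91 and *Bax* at 11.9 ± 0.845. *Bcl2l11* was at 1.35 ± 0.132 and *Bcl2*, the gene that names the family, was again last at 0.284 ± 0.150.

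As a share of the summed survival genes of the 10 per kilobase, with no survival gene outside them, the 3 *Bcl2a1* genes made 64.1% ± 11.7 in f/f BMDMs. In MKO BMDMs they made 50.8% ± 3.19. *Mcl1* made 33.5% ± 10.6 and 45.2% ± 2.17. In livers *Mcl1* made 64.6% ± 12.3 in those labelled f/f and 68.8% ± 6.79 in those labelled MKO, and *Bcl2l1* made 22.4% ± 0.516 and 17.0% ± 4.33. *Bcl2* stayed below 1% in every library on this scale. Without a length the *Bcl2a1* share of f/f BMDMs was 31.0% ± 12.2 and that of *Mcl1* 62.4% ± 9.92, so which of them led depended on the division by exon length.

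**Figure D1:**
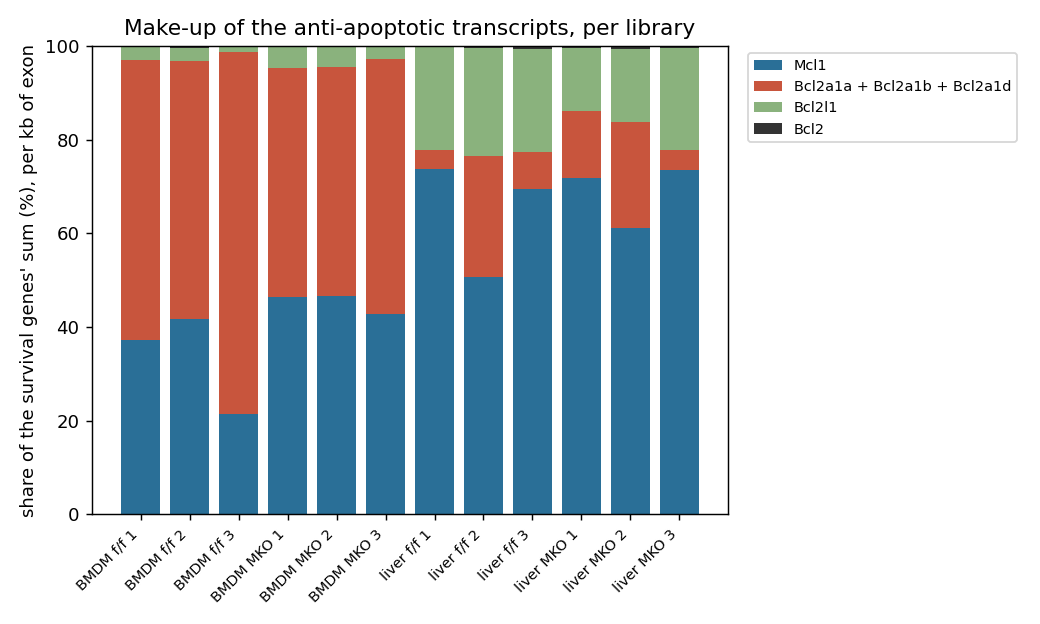
Share (%, bars stacked to 100) of each survival gene in the sum of CPM per kilobase of *Mcl1*, *Bcl2l1*, *Bcl2* and the 3 *Bcl2a1* genes, for each of the 12 libraries by its label. *Bcl2a1* transcripts made 48.9–77.4% in BMDMs and 4.03–25.9% in livers, where *Bcl2l1* took a larger share.

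BMDMs of f/f mice were compared with livers labelled f/f by edgeR (quasi-likelihood test, Benjamini-Hochberg adjustment over all genes tested). At an adjusted p under 0.05, 7 of 10 genes were higher in BMDMs and 0 were lower, where 63.4% of 15931 genes tested were called in either direction. Among survival genes the 3 *Bcl2a1* genes had log2 fold changes of 5.02, 5.68 and 5.43, *Mcl1* 2.16 (SE 0.259) and *Bcl2* 1.85 (SE 0.498). The pore former *Bax* was 1.79 higher (SE 0.230) and *Bcl2l11* 2.02 higher (SE 0.156) on the log2 scale. The adjusted p-values of these 7 in edgeR ran from 1.192e-04 for *Bcl2l11* to 0.0173 for *Bcl2*, and the *Bcl2* call was lost without f/f BMDM replicate 1 (adjusted p = 0.0509) or f/f liver replicate 3 (0.0565). *Cflar* (1.65, adjusted p = 0.0643), *Bbc3* (−0.78, 0.0817) and *Bcl2l1* (−0.36, 0.266) did not pass. DESeq2 called 9 of the 10, with *Cflar* (adjusted p = 0.0170) and *Bbc3* (0.0460) among them. *Cflar* was at 0.79 without f/f BMDM replicate 3 and at 2.10 without replicate 2 (edgeR adjusted p = 0.00712). Scaling by library totals alone moved the median gene by 0.83 on the log2 scale in this comparison and turned *Bcl2l1* (0.44) and *Bbc3* (0.098) to positive values. If the headings of the receptor table were right, these livers would be MKO and genotype and tissue could not be told apart here. Tissue here means a hormone-treated culture against a whole organ of insulin-treated mice, and fewer cells of a type cannot be told apart from less RNA per cell.

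**Figure D2:**
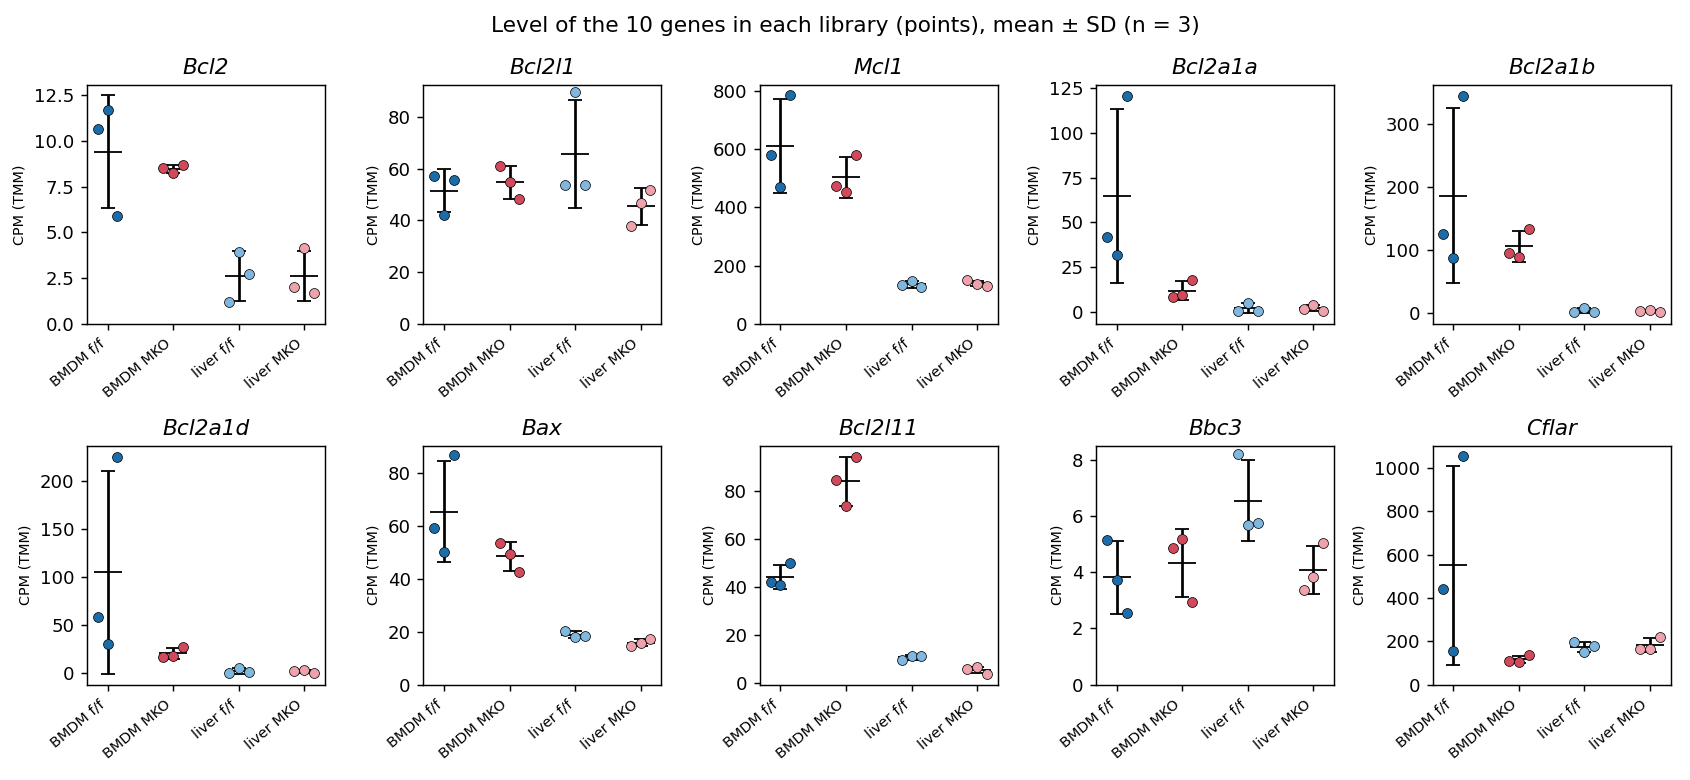
CPM of each of the 10 genes in the 12 libraries (points, in order of replicate number), with the mean (long bar) and SD (n = 3); each panel has its own axis. *Bcl2l11* was at 40.7–49.8 in f/f and 73.7–94.0 in MKO BMDMs but at 9.63–11.5 in livers labelled f/f and 4.05–6.67 in those labelled MKO, and f/f BMDM replicate 3 was the highest point for *Cflar* and the *Bcl2a1* genes.

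Between genotypes in BMDMs, edgeR called 0 of the 10 genes and 0% of 15372 genes at an adjusted p under 0.05, with the lowest adjusted p at 0.218. DESeq2 called 4 of the 10 (*Bcl2l11*, *Bcl2a1a*, *Bcl2a1d*, *Cflar*) and 1216 genes. At an unadjusted p under 0.05 edgeR gave the same number, 4 of 10, against 17.9% of all genes. With a fold of at least 2 as well it was 3 of 10 against 8.82%. The groups did not overlap in 4 of 10, against 28.7% of all genes. The median log2 fold change of the 10 was −0.37, beside 0.0083 over all genes tested.

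*Bcl2l11* encodes BIM, the BH3-only protein that binds every survival member. It was at 42.0, 40.7 and 49.8 CPM in f/f BMDMs and at 84.5, 73.7 and 94.0 in MKO BMDMs. All 3 MKO libraries were above all f/f libraries, with little spread inside either group. The log2 fold change was 0.92 (SE 0.146, 95% interval 0.57 to 1.27), with an unadjusted p of 5.574e-04 and an adjusted p of 0.218 in edgeR. Leaving out each library in turn gave 0.84 to 1.01. Without f/f replicate 3, the library that stood apart, the value was 1.01 (edgeR adjusted p = 0.0805). With all 12 libraries in 1 fit the adjusted p from edgeR was 0.0441, and DESeq2 gave 7.893e-05. The other BH3-only member, *Bbc3* (PUMA), was at 5.17, 3.74 and 2.54 CPM in f/f and 4.86, 5.20 and 2.95 in MKO BMDMs, and the groups overlapped (log2 fold change 0.17, SE 0.349, edgeR adjusted p = 0.804).

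*Cflar* was at 441, 156 and 1056 CPM in f/f BMDMs and at 109, 105 and 135 in MKO BMDMs. The groups did not overlap, but the f/f libraries were spread over a wide range and the lowest of them lay close to the highest MKO library. The log2 fold change was −2.25 (SE 0.651, edgeR adjusted p = 0.222), and it was −1.38 without f/f replicate 3. *Bcl2a1a* was at 41.5, 31.7 and 121 CPM in f/f and 8.00, 9.17 and 18.0 in MKO BMDMs (log2 fold change −2.47, SE 0.598, edgeR adjusted p = 0.218). *Bcl2a1d* was at 58.2, 30.5 and 225 CPM in f/f and 16.8, 17.2 and 27.1 in MKO BMDMs (−2.37, SE 0.740, adjusted p = 0.229). Neither of these pairs of groups overlapped, and f/f replicate 3 was again the highest. *Bcl2a1b* was at 126, 87.7 and 345 CPM in f/f and 95.7, 88.4 and 134 in MKO BMDMs. These groups overlapped (−0.82, SE 0.516, edgeR adjusted p = 0.421), and without f/f replicate 3 the value was −0.025. Without that library *Bcl2a1a* stood at −1.66 and *Bcl2a1d* at −1.14.

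The split of counts among the paralogs differed in the same libraries. *Bcl2a1a* took 18.4%, 21.1% and 17.5% of their sum in f/f BMDMs and 6.64%, 7.99% and 10.0% in MKO BMDMs. *Bcl2a1b* took 55.7%, 58.5% and 49.96% in f/f and 79.5%, 77.0% and 74.8% in MKO BMDMs, with no overlap and with f/f replicate 3 no exception. The sum of the 3 was at 225, 150 and 691 CPM in f/f and 120, 115 and 179 in MKO BMDMs. It overlapped between groups (log2 fold change −1.37, SE 0.581, edgeR adjusted p = 0.283), and with the sum in place of the paralogs 2 in place of 4 genes had an unadjusted p under 0.05. Whether the assignment of shared reads took part in the split was not tested.

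**Figure D3:**
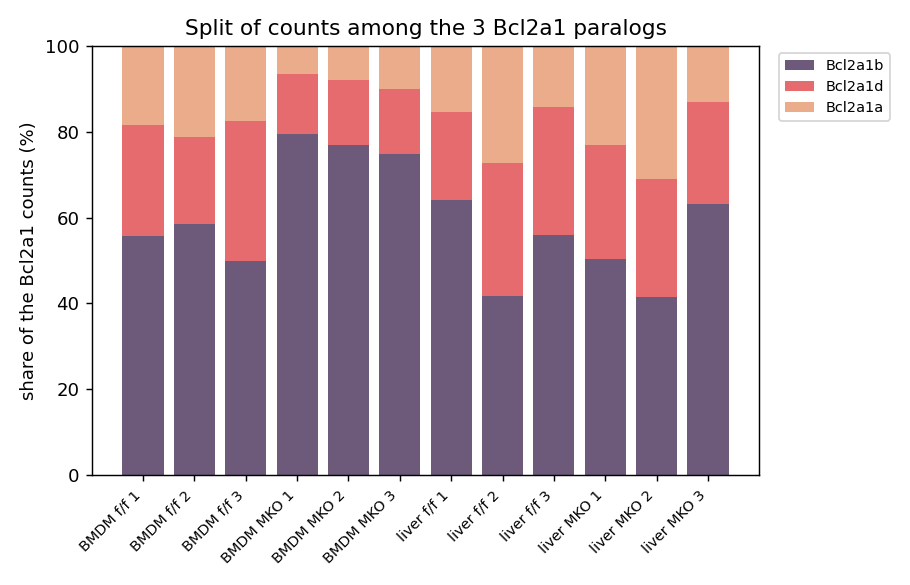
Share (%) of the summed counts of *Bcl2a1a*, *Bcl2a1b* and *Bcl2a1d* that each took in the 12 libraries, by label. *Bcl2a1b* held 49.96–58.5% in f/f and 74.8–79.5% in MKO BMDMs, while the shares of liver libraries rest on few counts.

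The remaining survival genes and *Bax* differed by less than their spread in BMDMs. *Mcl1* was at 579, 468 and 787 CPM in f/f and 473, 453 and 581 in MKO BMDMs (log2 fold change −0.29, 95% interval −0.88 to 0.30). *Bcl2l1* was at 57.3, 41.9 and 55.6 in f/f and 61.1, 55.0 and 48.3 in MKO (0.079, −0.32 to 0.48), and *Bcl2* at 10.7, 11.7 and 5.91 in f/f and 8.52, 8.25 and 8.68 in MKO (−0.17, −0.81 to 0.48). *Bax* was at 59.3, 50.1 and 86.6 in f/f and 53.4, 49.3 and 42.5 in MKO BMDMs (−0.44, −0.98 to 0.10). As a ratio of levels per kilobase within a library, *Bcl2l11* to *Mcl1* was 0.0309, 0.0370 and 0.0269 in f/f and 0.0761, 0.0692 and 0.0689 in MKO BMDMs. The ratio of *Bcl2l11* to *Bcl2l1* was 0.419, 0.554 and 0.512 against 0.790, 0.765 and 1.11. Neither pair of groups overlapped, while *Bax* to *Bcl2l1* was higher in f/f (3.01–4.54) than in MKO BMDMs (2.54–2.61).

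Genes of cell death that are no members, from lists written with earlier results known, were tested in the same fit. Of 35 genes in 6 lists (other BCL2 members, death receptors, inhibitors of apoptosis and caspases) 31 were tested in BMDMs, and edgeR called 0. At an unadjusted p under 0.05, 3 were higher and 10 lower in MKO (17.9% of all genes had such a p), and the median over the 31 was −0.16 on the log2 scale. *Fas*, the death receptor that cFLIP guards, had −2.13 (SE 0.326, edgeR adjusted p = 0.218), and *Mlkl*, which carries out necroptosis, −1.65 (adjusted p = 0.223). The inhibitors *Birc2* and *Birc3*, which hold the TNF receptor complex in its survival state, had −0.86 and −1.67, and cytochrome c (*Cycs*) had −0.97. *Casp9*, the caspase of the apoptosome, had 0.65 and *Bmf*, a further BH3-only gene, 1.66. All 13 genes of an NF-κB list were lower with an unadjusted p under 0.05 (median −2.28), as were 1567 of all 15372 genes, a direction known in these samples before the list was written. In livers 11 of the 13 were tested, with 4 higher and 7 lower in those labelled MKO, and 1 in each direction had such a p (*Il1a*, 1.08, and *Icam1*, −0.35). Among 6 upstream regulators of *Bcl2l11* and *Bbc3*, 0 had an unadjusted p under 0.05, and *Foxo3*, the one with the lowest p, was at 0.42 (edgeR adjusted p = 0.288). In livers 1 of these 6 had such a p, *Ddit3*, which codes for the stress factor CHOP, at 1.24 (edgeR adjusted p = 0.395).

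In livers edgeR called 0 of the 10 genes between genotypes and 0% of 15062 genes tested. DESeq2 called 1 of the 10, *Bcl2l11*, and 239 genes. At an unadjusted p under 0.05 edgeR gave 2 of 10 against 10.5% of all genes. With a fold of at least 2 as well it was 0 of 10 against 1.55%. The groups did not overlap in 4 of 10, against 17.3%. The median of the 10 was −0.20, beside −0.0064 over all genes.

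*Bcl2l11* was at 9.63, 11.5 and 11.4 CPM in livers labelled f/f and at 5.88, 6.67 and 4.05 in those labelled MKO. Every liver labelled MKO was below every liver labelled f/f, the opposite order to BMDMs. The log2 fold change was −0.98 (SE 0.213, 95% interval −1.49 to −0.48, edgeR adjusted p = 0.315), and leaving out each library gave −1.14 to −0.82. DESeq2 gave an adjusted p of 0.00902. *Bbc3* was at 8.23, 5.67 and 5.77 CPM in livers labelled f/f and 3.38, 3.83 and 5.04 in those labelled MKO, also without overlap (−0.70, SE 0.266, edgeR adjusted p = 0.437). *Bax* stood at 20.3, 17.8 and 18.2 against 14.5, 15.8 and 17.2 (−0.26, adjusted p = 0.530). *Bcl2l1* stood at 53.6, 89.9 and 53.7 in livers labelled f/f and 37.8, 46.7 and 51.8 in those labelled MKO (−0.54, edgeR adjusted p = 0.488). The highest MKO-labelled value of *Bcl2l1* lay just under the lowest of the other group, and 1 liver labelled f/f was far above the rest. Per kilobase, *Bcl2l11* to *Bcl2l1* was 0.103, 0.0733 and 0.121 in livers labelled f/f. It was 0.0888, 0.0815 and 0.0447 in those labelled MKO, so this ratio overlapped. *Bcl2l11* to *Mcl1* was 0.0307, 0.0333 and 0.0384 against 0.0168, 0.0208 and 0.0133, without overlap.

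*Cflar*, *Bcl2a1a* and *Bcl2a1d*, with the largest log2 fold changes in BMDMs, did not separate the livers, and neither did *Bcl2a1b*, *Mcl1* or *Bcl2*. *Cflar* was at 196, 148 and 178 CPM in livers labelled f/f and 165, 162 and 222 in those labelled MKO (log2 fold change 0.060, 95% interval −0.36 to 0.48). *Mcl1* was at 133.4, 148 and 126 against 149, 137 and 130 (0.018, −0.21 to 0.25), the narrowest interval of the 10. The sum of the *Bcl2a1* genes was at 1.76, 18.4 and 3.47 against 7.19, 12.3 and 1.79 CPM (−0.17, −2.48 to 2.15). That wide interval includes the BMDM value of the sum, −1.37. *Bcl2* was at 1.18, 3.91 and 2.71 against 2.00, 4.16 and 1.69. The sum and *Bcl2* were both highest in replicate 2 of each group, and their groups overlapped. Those 2 livers also had the most macrophage marker RNA, 428 and 407 CPM, beside 164–289 in the others labelled f/f and 171–203 in those labelled MKO. Kupffer cell markers were also highest in these 2 livers (626 and 541 CPM). Endothelial cell markers were highest in replicate 2 of each group too (191 and 175 CPM), with 178 in replicate 3 labelled f/f. Stellate cell or fibroblast markers were highest in replicate 2 labelled f/f (305 CPM), but not in replicate 2 labelled MKO (182.5, beside 183.9 in replicate 1). Across the 6 livers *Bcl2a1b* followed *Tyrobp*, an adaptor of myeloid receptors, most closely of all genes (Pearson r = 0.999, a description over 6 libraries that share 1 tissue). *Bax* and *Bbc3* were alike across the same livers (r = 0.992) but not across the 6 BMDM libraries (r = −0.338). *Bcl2a1d* and *Cflar* were alike across those BMDM libraries (r = 0.983), where f/f replicate 3 was highest for both. Across the livers that pair went in opposite directions (r = −0.939).

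Of the 6 lists of cell death genes, 32 were tested in livers and edgeR called 0. At an unadjusted p under 0.05, 2 were lower in livers labelled MKO (*Casp9*, −0.36, and *Ripk1*, −0.33). In a list of 12 p53 target and pathway genes, 11 were lower in livers labelled MKO and 2 of the 12 had an unadjusted p under 0.05, against 10.5% of all genes. *Cdkn1a*, which codes for the cell-cycle inhibitor p21, was at 125, 106.8 and 150 CPM in livers labelled f/f and 25.6, 36.6 and 39.7 in those labelled MKO (−1.92, SE 0.207, edgeR adjusted p = 0.151). *Sesn2* followed at −0.54. In BMDMs *Cdkn1a* was at 169, 101 and 516 against 42.4, 34.6 and 46.9 CPM (−2.68, adjusted p = 0.218), and of the 12 p53 genes 5 were higher and 7 lower there. At an unadjusted p under 0.05, 1 was higher (*Sesn1*, 2.18) and 4 were lower (*Cdkn1a*, *Mdm2* at −1.27, *Aen* at −0.43 and *Sesn2* at −0.37), against 17.9% of all genes in either direction.

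**Figure D4:**
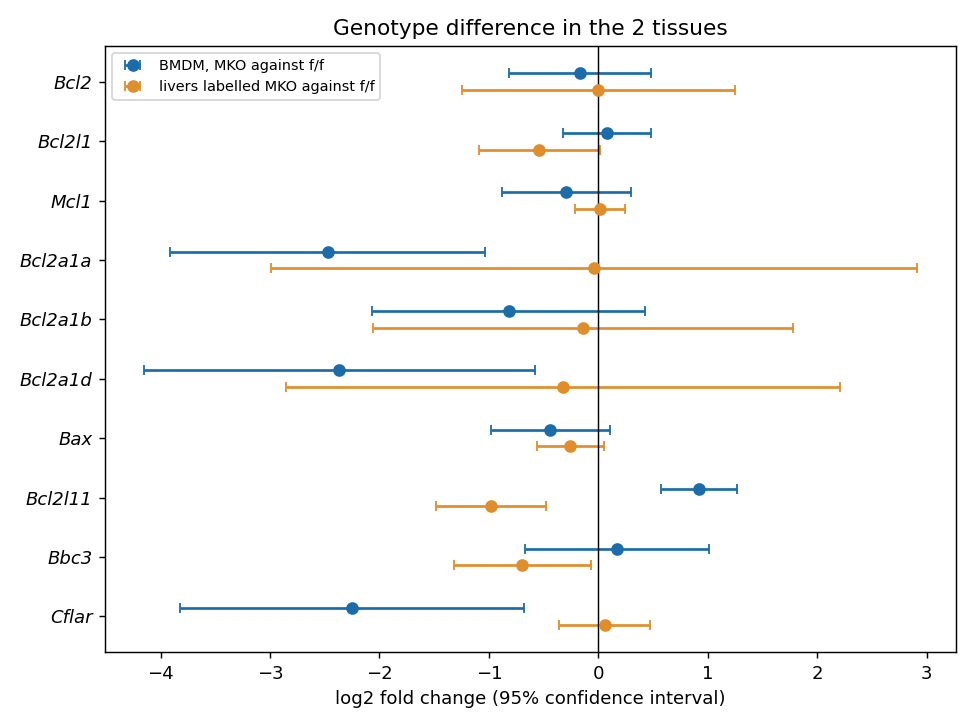
Log2 fold change (points) with its 95% confidence interval (bars) for the 10 genes between MKO and f/f BMDMs and between livers labelled MKO and f/f. *Bcl2l11* lies at 0.92 in BMDMs and −0.98 in livers, and its 2 intervals lie on opposite sides of 0.

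The difference between tissues in the genotype difference was tested itself, as an interaction in 1 fit of all 12 libraries. EdgeR called 0 of the 10 genes, and 0.0058% of 17246 genes (1 gene). *Bcl2l11* had an interaction of 1.90 on the log2 scale (SE 0.254, 95% interval 1.33 to 2.46), an unadjusted p of 1.611e-05 and an adjusted p of 0.0756, and it was the third gene of all by p. Leaving out each library gave 1.72 to 2.06, and the adjusted p fell to 0.0398, 0.0199 and 0.0402 without f/f BMDM replicate 1, 2 or 3. DESeq2 called *Bcl2l11* (adjusted p = 2.798e-09) and *Cflar* (0.0425). In edgeR *Cflar* had an interaction of −2.32 (SE 0.715, adjusted p = 0.226), −2.75 without f/f BMDM replicate 2 (0.0212) and −1.42 without replicate 3. In edgeR 2 of the 10 genes, *Bcl2l11* and *Cflar*, had an unadjusted p under 0.05. Among all 17246 genes 1228 had a positive and 1279 a negative value at that p. Without liver replicate 2 labelled f/f, the liver with the most *Bcl2a1* RNA, 4 of 10 had such a p. The share of all genes at that p was not counted in that fit, so the 4 is no result about the members. With the liver headings the other way round the *Bcl2l11* difference would have the same sign in both tissues.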

How the data were processed

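RNA of 6 BMDM and 6 liver libraries was sequenced as strand-specific TruSeq libraries. The values are counts of reads per gene, deposited by the authors as 1 table of raw counts with no normalization. Reads were trimmed with Skewer, and the submitters' processing notes name FastQC 0.11.2, STAR, StringTie and mm10, while the counting program, its strand setting and its annotation are not given in the sources used here. Of 55335 genes, 55154 were in GENCODE M21 (GRCm38), which gave positions and exon lengths. All exons of a gene were joined for its length, so a gene with long rare exons has too low a level per kilobase.

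Groups came from the labels. Genes were tested with edgeR 4.0.16 (TMM factors, filterByExpr, robust quasi-likelihood) in R 4.3.3. Benjamini-Hochberg adjustment covered all genes tested, at a threshold of 0.05; SE is the log2 fold change over the square root of F. The threshold of 2-fold with an unadjusted p follows the study's limits. The 10 members and all lists were chosen with earlier results of these data known. All 10 members were named, with the lists' called genes or, where none were called, some of the 3 lowest p-values in each direction. A gene of the lists is not reported here. The script was tested on simulated counts. Alternatives were DESeq2 1.42.0, RLE factors, no filter, all 12 libraries in 1 fit, the sample ID's first letter, the replicate number, paralogs summed and each library left out; scaling by library totals was added after seeing the data. Figures used python 3.11.15 and matplotlib 3.10.9. Library totals were 28962878–40954211 counts. The counting error of a mean count (as a CV) exceeded the CV between replicates for *Bcl2* in MKO BMDMs (4.72% against 2.55%). In the other gene and group pairs it was lower, and in 36 of 40 it was under 0.5 of that CV.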

Additional observations from a re-analysis of the deposited data

Results flagged for a closer look

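*Bcl2l11* differed between genotypes in opposite directions in the 2 tissues. All 3 MKO BMDM libraries (73.7–94.0 CPM) lay above all f/f BMDM libraries (40.7–49.8), and all 3 livers labelled MKO (4.05–6.67) lay below all livers labelled f/f (9.63–11.5). The interaction was 1.90 on the log2 scale (edgeR, unadjusted p = 1.611e-05, adjusted p = 0.0756). The direction in liver rests on the library labels, which the headings of the study's receptor table reverse in 6 of 6 columns.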

How the results depend on the processing

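Of 570 recomputed log2 fold changes of the members, 519 kept their direction and their side of the threshold, 33 changed sign, 16 passed the threshold only under the alternative and 2 lost it. With DESeq2 1216 genes and 4 members were called in BMDMs, 239 genes and 1 member in liver, and 743 genes and 2 members in the interaction. With all 12 libraries in 1 fit 150 genes and 1 member were called in BMDMs, and 351 liver genes passed an unadjusted p under 0.05 with a fold of at least 2, against 416 without the filter, which called 1 liver gene. With the *Bcl2a1* paralogs summed, 1 member had that p and fold in BMDMs and 2 had the p. With the first letter of the sample ID in the fit both counts were 1 in liver.

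Whether the replicate numbers pair the samples could not be settled with 3 libraries a group. Deviations of same-numbered libraries correlated at 0.152, 0.0358 and 0.118 in BMDMs and at −0.0755, 0.254 and −0.0331 in livers. Some libraries were closest to their own number and others were not. With a replicate block edgeR called 1 gene in BMDMs and 0 in the interaction, 1 member passed the p and fold in liver, and the liver values of *Bcl2* (0.041), *Bcl2a1a* (0.31) and *Bcl2a1b* (0.052) turned positive.

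Scaling by library totals, chosen after seeing the data, moved the median gene by 0.17 in BMDMs, 0.83 between tissues and 0.14 in the interaction. It called 2 genes in the interaction and turned *Bax* there (0.019), *Bcl2* in liver (0.0016) and, between tissues, *Bcl2l1* (0.44) and *Bbc3* (0.098). *Bcl2* in liver was also positive without the filter (0.016) and in the fit of 12 libraries (0.015).

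Leaving out 1 library at a time gave these ranges. There were 0–13 genes called and 828–1986 genes with an unadjusted p under 0.05 and a fold of at least 2 in BMDMs. Log2 fold changes in BMDMs ran from −0.41 to 0.027 for *Bcl2*, −0.044 to 0.18 for *Bcl2l1* and −0.043 to 0.47 for *Bbc3*. There were 0–1 members with that p and fold, 0–7 genes called, 190–452 genes with an unadjusted p under 0.05 and a fold of at least 2 and 1–3 members with that p in livers. Log2 fold changes in livers ran from −0.50 to 0.42 for *Bcl2*, −1.05 to 2.28 for *Bcl2a1a*, −0.61 to 1.08 for *Bcl2a1b*, −1.03 to 1.43 for *Bcl2a1d*, −0.12 to 0.15 for *Cflar* and −0.044 to 0.074 for *Mcl1*. In the interaction there were 0–341 genes called and 0–2 members called. Of the members 2–4 had that p and fold, beside 968–1949 of all genes, and 2–4 had that p. Log2 fold changes in the interaction ran from −0.59 to 0.35 for *Bcl2*, −1.92 to 0.12 for *Bcl2a1b* and −0.35 to 0.078 for *Bax*. The highest numbers of called genes came without f/f BMDM replicate 2 (13 in BMDMs and 341 in the interaction, against 62 and 16 without f/f BMDM replicate 1 or 3) and without liver replicate 2 labelled f/f (7). The cause of these changes was not tested, and with 3 libraries a group the spread of f/f BMDMs limits what can be called.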
